A study of Mus musculus with 10 samples.

Results

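The 10 genes described here, Slc2a1, Hk2, Pfkfb3, Pfkfb4, Aldoa, Pgk1, Eno1, Ldha, Pdk1 and Car9, encode a glucose transporter, enzymes and regulators of glycolysis and a carbonic anhydrase, all known as hypoxia-inducible genes. They were chosen by name: each array probe, control spots left out, whose gene name is one of the 10 was taken. The 10 genes have 14 probes among 55681 on the array. Of these, 13 were among the 30857 probes kept as detected, and all 10 genes were among the 22234 genes tested. The tumours were untreated mouse neuroblastomas, each from a different mouse. Of the 10 tumours, 5 came from ALK+/-, MYCN+/- transgenic mice that express ALK F1174L with MYCN, on a background of C57BL/6 x 129X1/SvJ. The other 5 came from MYCN+/- transgenic mice on 129X1/SvJ. Both groups carry the MYCN transgene. Genotype and strain background changed together, so their parts in a difference cannot be told apart. The labels name no promoter that drives either transgene. Total RNA of whole tumours was measured, so fewer cells of a type and less RNA per cell cannot be told apart.

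Glycolysis splits glucose into pyruvate in the cytosol, and the pyruvate is either reduced to lactate or taken into mitochondria and oxidised. When oxygen is low, hypoxia-inducible factor (HIF), a pair of an oxygen-sensitive alpha subunit and ARNT, binds short elements in promoters and raises glucose uptake, glycolytic enzymes and pyruvate dehydrogenase kinase. MYC proteins bind a related element, the E-box, in promoters of several of the same genes, and neuroblastomas with amplified MYCN are known for high expression of glycolytic enzymes.

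Each value below is a log2 ratio of the tumour RNA (Cy3) over a reference RNA pooled from mouse cell lines (Cy5), after background correction and loess normalisation within the array. A value below 0 means less signal than in the reference, and values of different genes cannot be set against each other. A difference is the mean of ALK/MYCN tumours minus that of MYCN tumours, with its standard error (SE). A gene was called where limma's p-value, adjusted by Benjamini-Hochberg over all 22234 genes, was below 0.05. On each array, between 53.8% and 58.7% of probe spots were well above background and 0 spots were saturated. With 5 arrays a group, the number of arrays limits the precision. All 12 neuroblastoma identity markers examined, such as Th and Dbh, were well above background on all 10 arrays. The mouse Mycn probe read 2.89 to 4.83 in ALK/MYCN tumours and 0.33 to 1.24 in MYCN tumours. The mouse Alk probe read 3.55 to 4.84 in ALK/MYCN tumours and 4.22 to 4.33 in MYCN tumours, so it did not separate the groups. The labels do not say whether either probe detects its transgene.

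Promoters of 4 of the 10 genes are printed. They belong to 2 of the 3 genes that were called (Pgk1, Car9) or to genes that moved most closely together from tumour to tumour (Slc2a1, Ldha). All 4 hold the motif marked below, and the third called gene, Eno1, which lacks it, is not printed. Sequences are from RefSeq, build GRCm38.p6, and give the 250 bases before the annotated start, 5′ to 3′ on the gene's plus strand. Capitals mark ACGTG, a core of the HIF element, or its reverse CACGT, and the variant core GCGTG is not marked.
Pgk1, chrX:106186850-106187099: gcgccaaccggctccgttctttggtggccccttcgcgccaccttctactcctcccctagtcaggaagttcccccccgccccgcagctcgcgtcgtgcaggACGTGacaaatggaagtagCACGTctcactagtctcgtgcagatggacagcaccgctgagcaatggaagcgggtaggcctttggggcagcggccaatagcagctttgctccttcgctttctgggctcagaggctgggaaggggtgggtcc
Car9, chr4:43506776-43507025: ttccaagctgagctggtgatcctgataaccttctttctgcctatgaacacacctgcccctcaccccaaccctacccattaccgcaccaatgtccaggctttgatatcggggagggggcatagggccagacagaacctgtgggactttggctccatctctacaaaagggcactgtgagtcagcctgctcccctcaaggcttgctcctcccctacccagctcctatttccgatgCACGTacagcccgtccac
Ldha, chr7:46845554-46845803: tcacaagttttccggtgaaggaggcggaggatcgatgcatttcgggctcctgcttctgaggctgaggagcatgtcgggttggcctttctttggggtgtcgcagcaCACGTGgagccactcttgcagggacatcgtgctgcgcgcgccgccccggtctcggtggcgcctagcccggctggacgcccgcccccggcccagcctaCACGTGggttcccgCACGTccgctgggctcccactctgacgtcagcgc
Slc2a1, chr4:119108495-119108744: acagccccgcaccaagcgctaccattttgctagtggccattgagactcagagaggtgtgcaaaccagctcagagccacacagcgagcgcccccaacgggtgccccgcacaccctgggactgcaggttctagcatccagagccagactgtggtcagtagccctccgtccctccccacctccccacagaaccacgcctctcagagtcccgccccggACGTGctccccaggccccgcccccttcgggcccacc
ACGTG was searched on both strands. It was present in 16.6% of 32851 such windows of the mouse RefSeq table. All 10 genes matched the table, with 17 windows, of which 9 held the motif, and 7 of the 10 genes had it before at least 1 start. Some windows of Aldoa and of Eno1 overlap, so the same site can be counted in more than 1 window. The 16.6% is a share of windows, and no share of genes was computed to set beside the 7 of 10. Eno1, the third called gene, had it in 0 of 3 windows, and Pfkfb4 and Pdk1 had it before no start. Pgk1 had it at positions -150 and -131 and Slc2a1 at -36, counted to the motif's first base from the start. Car9 had it at -18. Ldha had it at -145, -144, -48, -47 and -34. The pairs at -145 and -144 and at -48 and -47 each overlap in the E-box CACGTG, which reads the same on both strands. CACGTG was in 6.02% of all windows and in 2 of the 17, 1 of Ldha and 1 of Pfkfb3. The variant core GCGTG was in 28.2% of all windows and in 8 of the 17, which belong to 6 genes. These were Slc2a1, Ldha, Eno1, Pfkfb3, Pfkfb4 and Pdk1. The genes without ACGTG, Eno1, Pfkfb4 and Pdk1, thus each held GCGTG before at least 1 start, Eno1 in all 3 windows. A match is a string of letters in this window and does not show binding.

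Of the 10 genes, 2 were higher in ALK/MYCN tumours (Pgk1 and Eno1), 1 was lower (Car9) and 7 were not called. Over all genes tested, 26.5% were called, 14.2% higher and 12.2% lower, so 3 of 10 is a share near that background. With centring on spike-in controls, 8816 of all genes were higher and 835 lower, against 3166 and 2722, and the median of all genes moved to 0.25. The median difference of the 10 genes was 0.11, against -0.004 over all genes, and it ranged from -0.07 (without ALK/MYCN 1) to 0.20 (without ALK/MYCN 4) when each tumour was left out. Counted by probe, 3 of the 13 kept probes were called, against 24.9% of all kept probes. The tumours of the groups did not overlap in the same 3 genes, against 20.0% of 22152 genes with a value on every array.

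**Figure D1:**
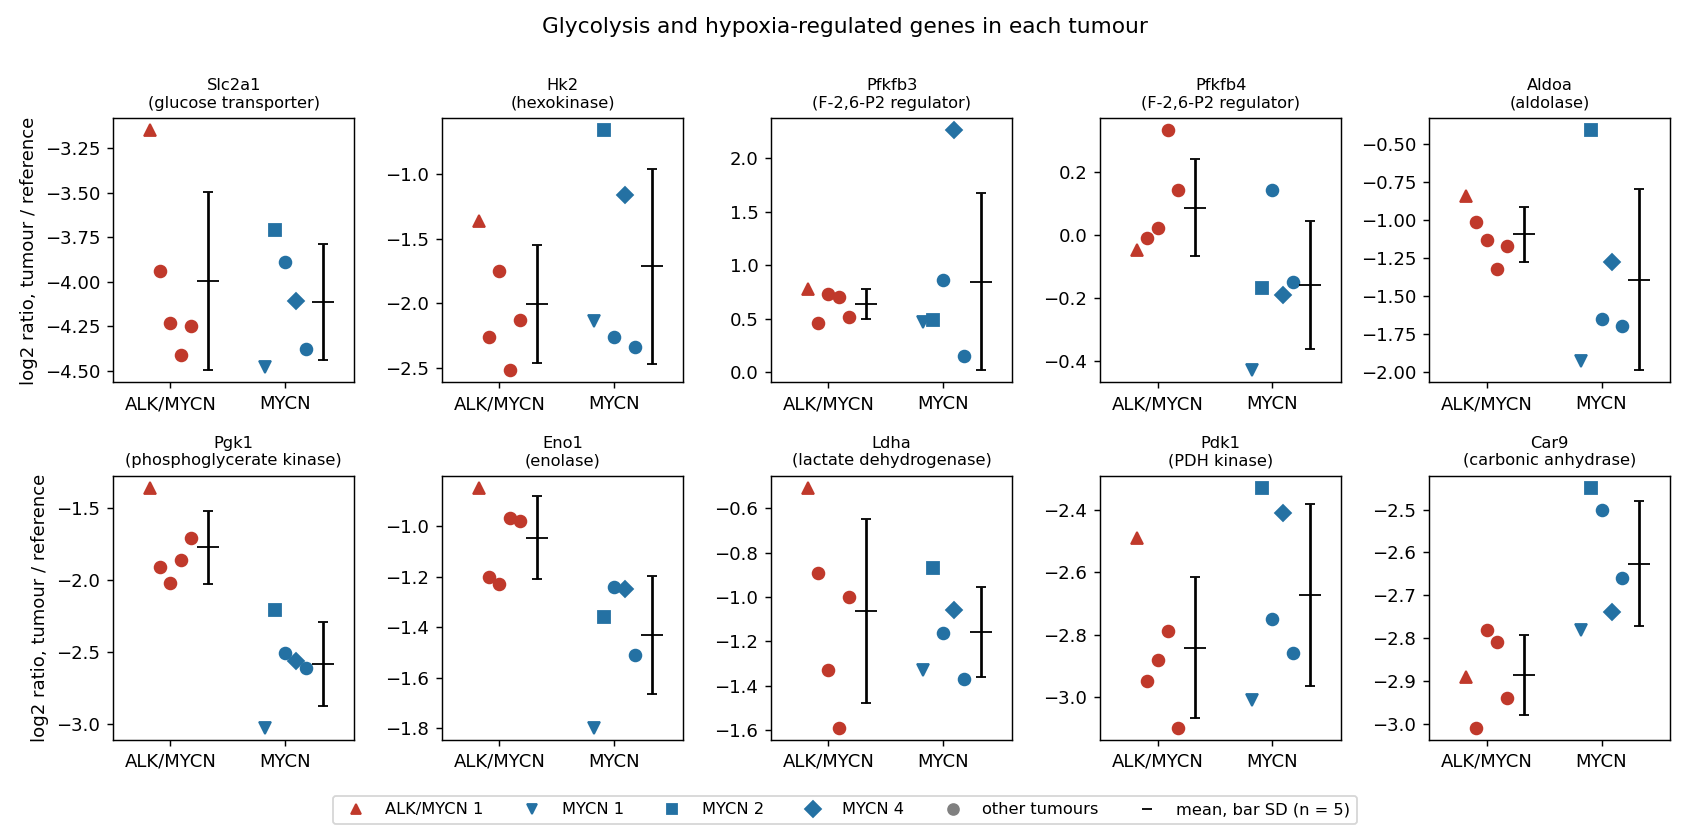
Log2 ratio of tumour over reference (y axis, each panel on its own scale) for the 10 genes in the 5 ALK/MYCN tumours (red, left) and the 5 MYCN tumours (blue, right), with the mean and SD of each group as a black bar. The groups separate in Pgk1, Eno1 and Car9; in the other panels they overlap, and ALK/MYCN 1 (upward triangle), MYCN 2 (square) or MYCN 4 (diamond) often holds the highest value.

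Glucose enters cells through transporters, and Slc2a1 (GLUT1) is the widely expressed basal one. Its log2 ratio was -3.15, -3.94, -4.23, -4.41 and -4.25 in ALK/MYCN tumours 1 to 5, against -4.48, -3.71, -3.89, -4.11 and -4.38 in MYCN tumours 1 to 5. ALK/MYCN 1 stood highest and the groups overlapped. The difference was 0.12 ± 0.24 (SE, n = 5 each; limma adjusted p = 0.756), and it was -0.09 without ALK/MYCN 1. Hk2, the hexokinase that traps glucose as glucose 6-phosphate and is abundant in muscle and fat, read -1.36, -2.26, -1.75, -2.52 and -2.13 in ALK/MYCN tumours, against -2.14, -0.66, -2.26, -1.16 and -2.34 in MYCN tumours. MYCN 2 and MYCN 4 were the highest and the next highest of the 10. The Hk2 difference was -0.29 ± 0.35 (SE, n = 5 each; limma adjusted p = 0.575) and the groups overlapped.

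Pfkfb3 and Pfkfb4 encode enzymes that make and break down fructose 2,6-bisphosphate, an activator of phosphofructokinase. Pfkfb3 read 0.78, 0.46, 0.73, 0.70 and 0.52 in ALK/MYCN tumours, against 0.47, 0.49, 0.86, 2.26 and 0.15 in MYCN tumours. A single tumour, MYCN 4, lay far above the other 9. The difference was -0.21 ± 0.34 (SE, n = 5 each; limma adjusted p = 0.684) with it, 0.14 without it, and 0.04 with spike-in centring. A second Pfkfb3 probe, which spans 1414 bases of the mm9 genome, was dimmer, well above background in 4 of 5 ALK/MYCN tumours and 4 of 5 MYCN tumours. It read 0.06, -0.16, 0.01, 0.09 and -0.04 in ALK/MYCN tumours, against 0.08, 0.43, 0.52, 0.98 and -0.05 in MYCN tumours. It too was highest in MYCN 4, and its difference was -0.40 ± 0.17 (SE, n = 5 each; limma adjusted p = 0.11 over the kept probes). Pfkfb4 read -0.05, -0.01, 0.02, 0.33 and 0.14 in ALK/MYCN tumours, against -0.43, -0.17, 0.14, -0.19 and -0.15 in MYCN tumours. Only MYCN 3 reached the ALK/MYCN range. The Pfkfb4 difference was 0.24 ± 0.11 (SE, n = 5 each; limma adjusted p = 0.135). It was called under 2 of 23 alternatives: 0.50 with an adjusted p of 0.00537 when arrays were centred on spike-in controls, where 39.7% of genes were called higher, and 0.39 with an adjusted p of 0.0435 under median normalisation, where 20.0% were. A second Pfkfb4 probe was well above background in 1 ALK/MYCN tumour and 0 MYCN tumours, and was not tested.

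Aldoa, the aldolase that splits fructose 1,6-bisphosphate and the form found in muscle, read -0.84, -1.01, -1.13, -1.32 and -1.17 in ALK/MYCN tumours, against -1.93, -0.41, -1.65, -1.28 and -1.70 in MYCN tumours. MYCN 2 was the highest of all 10 and MYCN 1, 3 and 5 the lowest. The difference was 0.30 ± 0.25 (SE, n = 5 each; limma adjusted p = 0.411) with all tumours, and 0.55 with an adjusted p of 0.0233 without MYCN 2. MYCN 2 also had the highest skeletal muscle marker level. Of the 10 muscle markers, 8 were tested and 1 was lower in ALK/MYCN tumours. Over these 8, the MYCN 2 mean lay 4.84 above the mean of the 10 tumours on the log2 scale. The ALK/MYCN tumours lay from -1.18 to -0.94 and MYCN 3, 4 and 5 from -0.68 to -0.41. MYCN 1 had the next highest muscle marker mean, 2.11, and the lowest Aldoa value of the 10. The part of these markers in the Aldoa and Hk2 values was not tested.

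Pgk1 encodes phosphoglycerate kinase, which makes the first ATP that glycolysis pays back. It read -1.36, -1.91, -2.02, -1.86 and -1.71 in ALK/MYCN tumours, against -3.03, -2.21, -2.51, -2.56 and -2.61 in MYCN tumours. Every ALK/MYCN tumour was above every MYCN tumour. Its mean was -1.77 ± 0.26 in ALK/MYCN tumours and -2.58 ± 0.29 in MYCN tumours (SD, n = 5 each). The difference was 0.81 ± 0.16 (SE; limma adjusted p = 0.00603), or 1.76-fold, and it was positive on each of the 3 slides (1.12, 0.82 and 0.73). Slide 1 held only ALK/MYCN 2 and MYCN 1. MYCN 4 was the only MYCN tumour on slide 2, and ALK/MYCN 5 the only ALK/MYCN tumour on slide 3. Each slide value thus rests on a single tumour of at least 1 group. The call was kept under all 23 alternatives, with differences from 0.60 to 1.07. Eno1, an enolase that forms phosphoenolpyruvate, read -0.85, -1.20, -1.23, -0.97 and -0.98 in ALK/MYCN tumours, against -1.80, -1.36, -1.24, -1.25 and -1.51 in MYCN tumours. The groups did not overlap, but ALK/MYCN 3 and MYCN 3 lay next to each other. The Eno1 difference was 0.39 ± 0.12 (SE, n = 5 each; limma adjusted p = 0.0417), or 1.31-fold. It stayed positive under all 23 alternatives and was called under 13 of them, with adjusted p up to 0.11 in the others. Leaving out ALK/MYCN 1, 4 or 5, or MYCN 1, 2 or 5, each ended the call, with adjusted p from 0.0585 to 0.0901.

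The Pgk1 probe, the Eno1 probe and the brightest Ldha probe each shared a run of at least 25 bases with a probe of another name on the array. The signals of the 2 probes sharing a run cannot be told apart. The array's own annotation places the Pgk1 probe on chromosome 3, whereas RefSeq places the Pgk1 gene on X. It overlaps the probe of Gm5537, a gene that RefSeq lists as a pseudogene, with 53 bases in common. For Ldha, whose copy lies on another chromosome, the first 30 bases of the shared run are printed to show letters that both probes hold.
Ldha and unnamed chromosome 4 probes: tgcatatggatgatggaaccaaccacccaa
The Gm5537 probe read -1.37, -1.95, -2.07, -1.99 and -1.78 in ALK/MYCN tumours, against -2.89, -2.21, -2.48, -2.58 and -2.70 in MYCN tumours. These values follow those of the Pgk1 probe tumour by tumour, and the difference was 0.74 ± 0.16 (SE, n = 5 each; limma adjusted p = 0.00817 over the kept probes). The Eno1 probe shares 53 bases with a probe of Eno1b, another enolase gene. That probe differed by 0.38 ± 0.11 (SE, n = 5 each; limma adjusted p = 0.0352 over the kept probes). The brightest Ldha probe shares 33 bases with an unnamed probe on chromosome 4, which differed by 0.16 ± 0.19 (SE, n = 5 each; limma adjusted p = 0.571 over the kept probes).

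**Figure D2:**
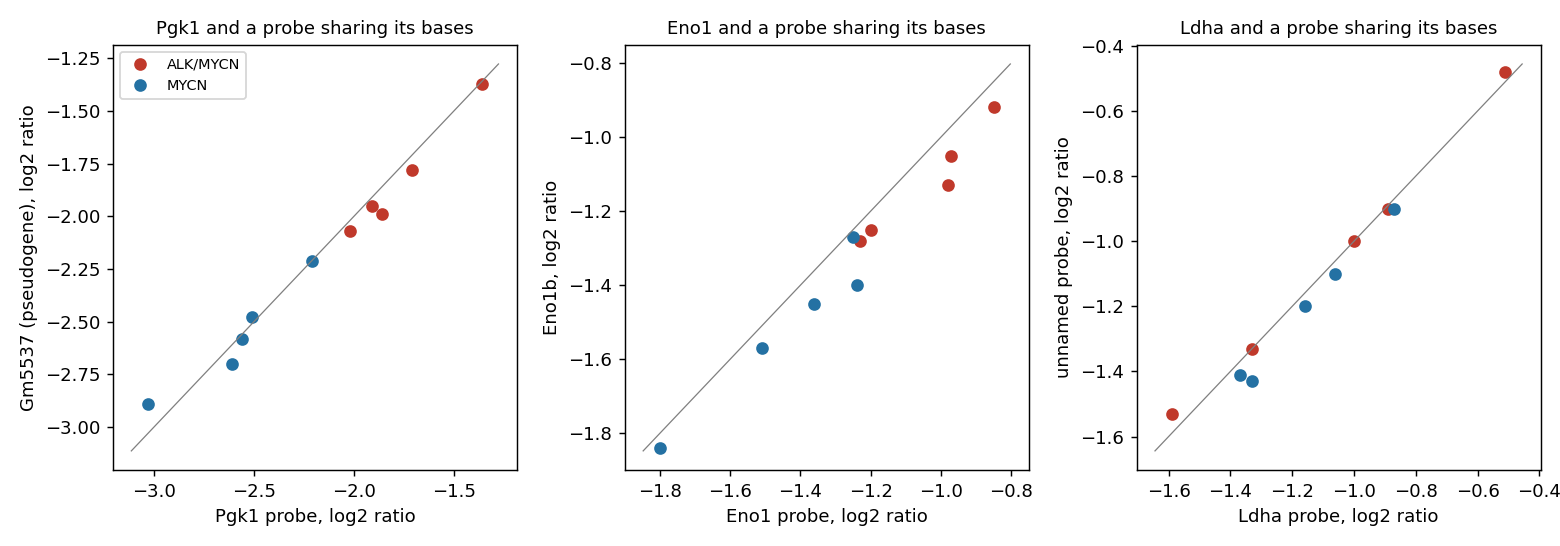
Log2 ratio of a probe of Pgk1, Eno1 or Ldha (x axis) against that of another probe sharing a run of its bases (y axis), 1 point for each of the 5 ALK/MYCN (red) and 5 MYCN (blue) tumours; the grey line marks equal values. The points lie close to the line, with correlations of the deviations from the group means of 0.971 (Pgk1), 0.973 (Eno1) and 0.996 (Ldha).

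Ldha encodes the lactate dehydrogenase subunit that favours reduction of pyruvate to lactate. Its brightest probe read -0.51, -0.89, -1.33, -1.59 and -1.0 in ALK/MYCN tumours, against -1.33, -0.87, -1.16, -1.06 and -1.37 in MYCN tumours. ALK/MYCN tumours held both the highest and the lowest value, and the groups overlapped. The difference was 0.09 ± 0.19 (SE, n = 5 each; limma adjusted p = 0.748). The other 2 probes of the gene differed by -0.14 and 0.03, and the 3 correlated at 0.88 to 0.98 over the 10 tumours. Pdk1, the pyruvate dehydrogenase kinase that keeps pyruvate out of mitochondrial oxidation, read -2.49, -2.95, -2.88, -2.79 and -3.10 in ALK/MYCN tumours, against -3.01, -2.33, -2.75, -2.41 and -2.86 in MYCN tumours. MYCN 2 and MYCN 4 were highest and the groups overlapped. The Pdk1 difference was -0.17 ± 0.15 (SE, n = 5 each; limma adjusted p = 0.443), and it turned to 0.08 with spike-in centring.

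Car9 encodes carbonic anhydrase IX, a cell-surface enzyme that disposes of acid made by glycolysis and a widely used marker of hypoxia. It read -2.89, -3.01, -2.78, -2.81 and -2.94 in ALK/MYCN tumours, against -2.78, -2.45, -2.50, -2.74 and -2.66 in MYCN tumours. The groups did not overlap, though ALK/MYCN 3 and MYCN 1 both read -2.78 at this rounding. The difference was -0.26 ± 0.08 (SE, n = 5 each; limma adjusted p = 0.0428), or 0.835-fold. The mean Cy3 signals, before background correction, were 254, 171, 225, 238 and 273 in ALK/MYCN tumours and 200, 286, 287, 245 and 290 in MYCN tumours. The call was kept under 7 of 23 alternatives. With spike-in centring the difference was -0.01 (adjusted p = 0.959), with median normalisation -0.11 (0.411) and with scaling between arrays -0.09 (0.565).

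**Figure D3:**
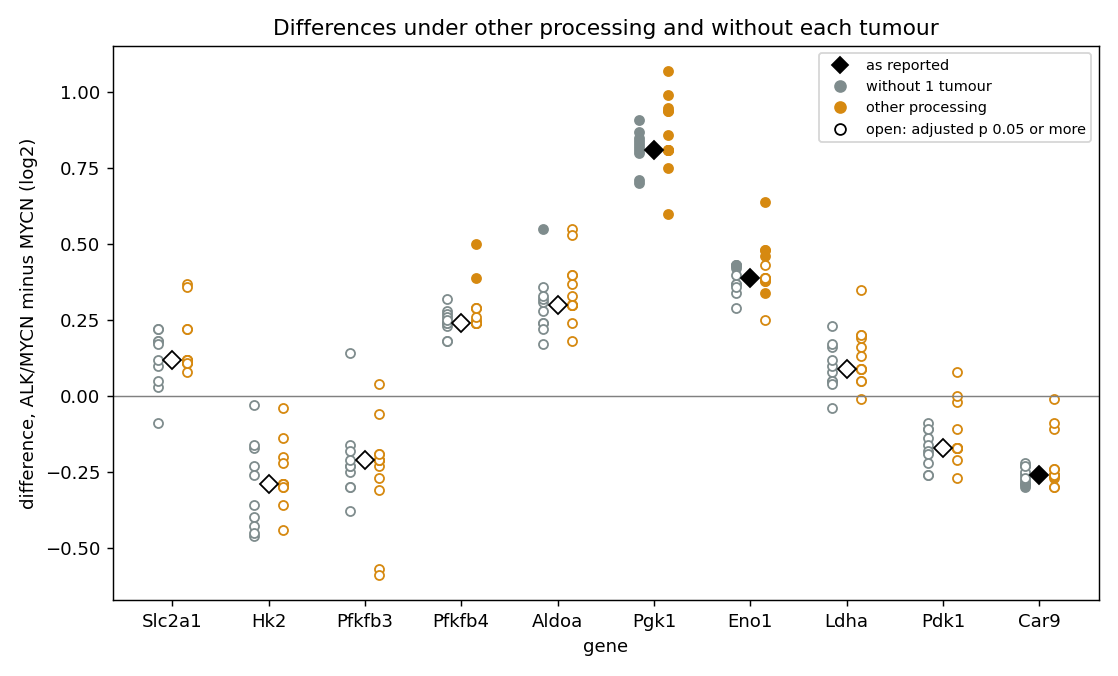
Difference of each gene, ALK/MYCN minus MYCN on the log2 scale (y axis), as reported (black diamond), without 1 tumour (grey, 10 points) and under other processing (orange); filled symbols had an adjusted p below 0.05. Pgk1 stays between 0.60 and 1.07 and filled throughout, Eno1 stays above 0 with some points open, and Car9 reaches -0.01.

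Among the tumours, the 10 genes did not all run together. ALK/MYCN 1 held the highest value in 4 of them (Slc2a1, Pgk1, Eno1 and Ldha) and MYCN 2 in another 4 (Hk2, Aldoa, Pdk1 and Car9). MYCN 1 held the lowest value in 5. After subtraction of the mean of the 10 tumours from each gene, the mean of the 10 genes was 0.38, -0.02, -0.01, -0.07 and -0.01 in ALK/MYCN tumours, against -0.40, 0.28, -0.04, 0.20 and -0.29 in MYCN tumours. Apart from ALK/MYCN 1, the ALK/MYCN tumours lay close to the middle, whereas MYCN tumours lay on both sides. As a description over 10 tumours that share arrays and normalisation, deviations from the group means correlated at 0.88 between Slc2a1 and Ldha, 0.87 between Hk2 and Aldoa, 0.82 between Slc2a1 and Pgk1 and 0.80 between Pgk1 and Eno1. Pfkfb4 correlated at -0.34 with Ldha and -0.33 with Hk2, and Pfkfb3 with Slc2a1 at 0.14.

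**Figure D4:**
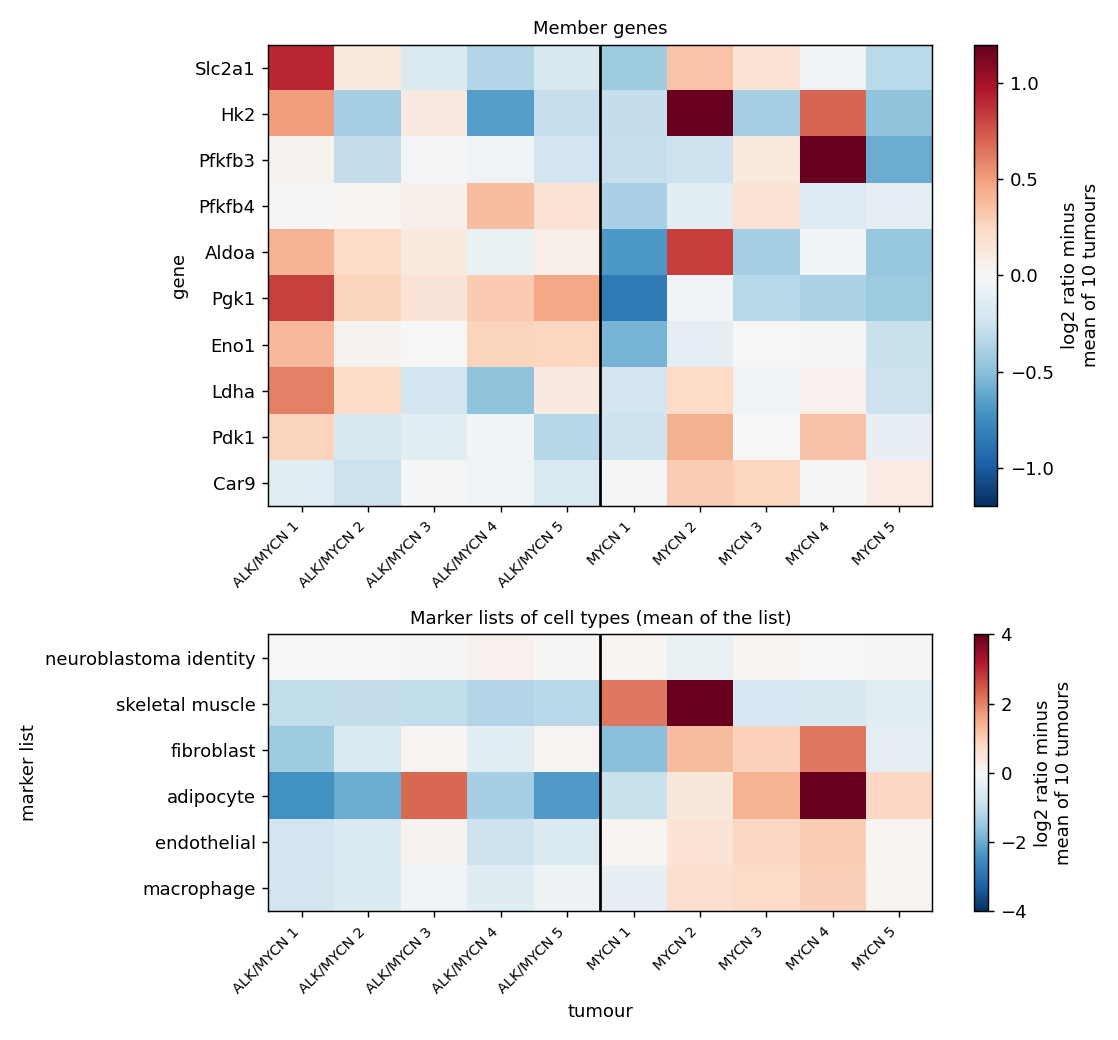
Log2 ratio minus the mean of the 10 tumours (colour, a scale for each panel) for the 10 genes (top) and for the mean of 6 marker lists (bottom), with the 5 ALK/MYCN tumours left of the line and the 5 MYCN tumours right of it. ALK/MYCN 1 is high in Slc2a1 and Pgk1, MYCN 2 in Hk2, Aldoa and muscle markers, and MYCN 4 in Pfkfb3 and adipocyte markers.

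Markers of some other cell types moved with the groups. Among all genes tested, 12.2% were lower in ALK/MYCN tumours and 14.2% higher. Of the endothelial markers tested, 8 of 10 were lower in ALK/MYCN tumours, with list means from -0.82 to 0.15 in ALK/MYCN tumours and from 0.08 to 1.01 in MYCN tumours. Of the macrophage markers, 6 of 9 were lower, with list means from -0.72 to -0.14 in ALK/MYCN tumours and from -0.34 to 0.94 in MYCN tumours. Of the 8 erythroid markers, 4 were tested and 3 were lower. Their list means ran from -0.77 to -0.45 in ALK/MYCN tumours and from -0.27 to 1.33 in MYCN tumours. Ahsp, 1 of the 3, was well above background in 0 of 5 ALK/MYCN tumours and 5 of 5 MYCN tumours. It passed the detection filter only through the MYCN group, so its call is not independent of that filter. Schwann cell markers went the other way: 3 of 6 tested were higher, with list means from 0.11 to 0.67 in ALK/MYCN tumours and from -0.57 to 0.08 in MYCN tumours. Of the lymphocyte markers, 2 of 6 tested were lower, as was 1 of 10 fibroblast markers. Of the 12 neuroblastoma identity markers, 4 were higher (Isl1, Th, Ddc and Ncam1) and 0 lower. Their list means ran from -0.05 to 0.18 in ALK/MYCN tumours and from -0.28 to 0.08 in MYCN tumours. MYCN 4, the tumour with the highest Pfkfb3, had the highest endothelial (1.01), macrophage (0.94), fibroblast (2.11) and adipocyte (3.96) list means. Of 8 adipocyte markers, 7 were tested and 1 was lower. Over these 7, the means ranged from -2.43 to 2.29 in ALK/MYCN tumours and from -0.90 to 3.96 in MYCN tumours. ALK/MYCN 3 had an adrenal cortex list mean of 4.12, with 3 of 7 markers tested. The part of these markers in the differences of the 10 genes was not tested. Without ALK/MYCN 3, MYCN 2 and MYCN 5 together, Pgk1 differed by 0.99 (adjusted p = 0.0147), Eno1 by 0.43 (0.108) and Car9 by -0.24 (0.136).

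Some genes tracked a member closely from tumour to tumour. By Pearson's r of the deviations from the group means over 10 tumours, the nearest to Pgk1 were Gm5537 (0.971), Tpi1, triosephosphate isomerase (0.951), and Inha (0.936). The nearest named gene to Eno1 after Eno1b (0.973) was Atp6ap2 (0.958). The Gm5537 and Eno1b probes share 53 bases with the probes of Pgk1 and Eno1. Their r values therefore cannot be read as separate genes moving together. Those nearest to Pfkfb3 were Gbp11 (0.979), the chemokine receptor gene Cxcr3 (0.968) and Tmem120b (0.962). Slc2a1 was nearest to Gja3 (0.962) and Syne1 (0.924) among named genes, and Pdk1 to Ndufa4l2 (0.939), another HIF target, and Orc4 (0.931). Hk2 was nearest to Rnd1 (0.918) among genes with a standard symbol other than a RIKEN clone name, and Car9 to Tmem54 (0.919) and Fbxo3 (0.906). For Ldha, Aldoa and Pfkfb4 the 3 nearest were probes with no gene name. Their r ran from 0.984 to 0.996 for Ldha, 0.991 to 0.994 for Aldoa and 0.941 to 0.946 for Pfkfb4. The probe nearest to Ldha (0.996) shares 33 bases with the Ldha probe, so the same limit holds there.

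The other enzymes of glycolysis give the route around these genes. Of 17 other glycolysis enzymes tested, 4 were higher in ALK/MYCN tumours and 1 was lower, with a median difference of 0.29; over all genes, 14.2% were higher and 12.2% lower. Aldoc, the brain-type aldolase, read -1.51, -2.65, -1.86, -1.66 and -2.21 in ALK/MYCN tumours, against -3.93, -3.28, -3.37, -3.69 and -3.77 in MYCN tumours. It did not overlap between groups, and its difference was 1.63 ± 0.22 (SE, n = 5 each; limma adjusted p = 0.000993). Pfkp, the platelet form of phosphofructokinase, differed by 1.40 ± 0.21 (limma adjusted p = 0.00154), and by 0.90 ± 0.14 at a second probe. Pgam1, the phosphoglycerate mutase that acts between Pgk1 and Eno1, differed by 0.73 ± 0.13 (limma adjusted p = 0.00367). The fourth, glucose phosphate isomerase Gpi1, differed by 0.50 ± 0.13 (limma adjusted p = 0.0217) and was chosen for naming after its value was seen. Hk3, a hexokinase known from blood cells, was lower, with a difference of -1.01 ± 0.25 (limma adjusted p = 0.0149). Aldoc, Pfkp, Pgam1 and Hk3 kept their calls under all 23 alternatives. Tpi1 differed by 0.34 ± 0.12 (limma adjusted p = 0.0629), Gapdh by 0.29 ± 0.11 (0.083) and pyruvate kinase Pkm by 0.39 ± 0.14 (0.0583), all chosen for naming with their values known.

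**Figure D5:**
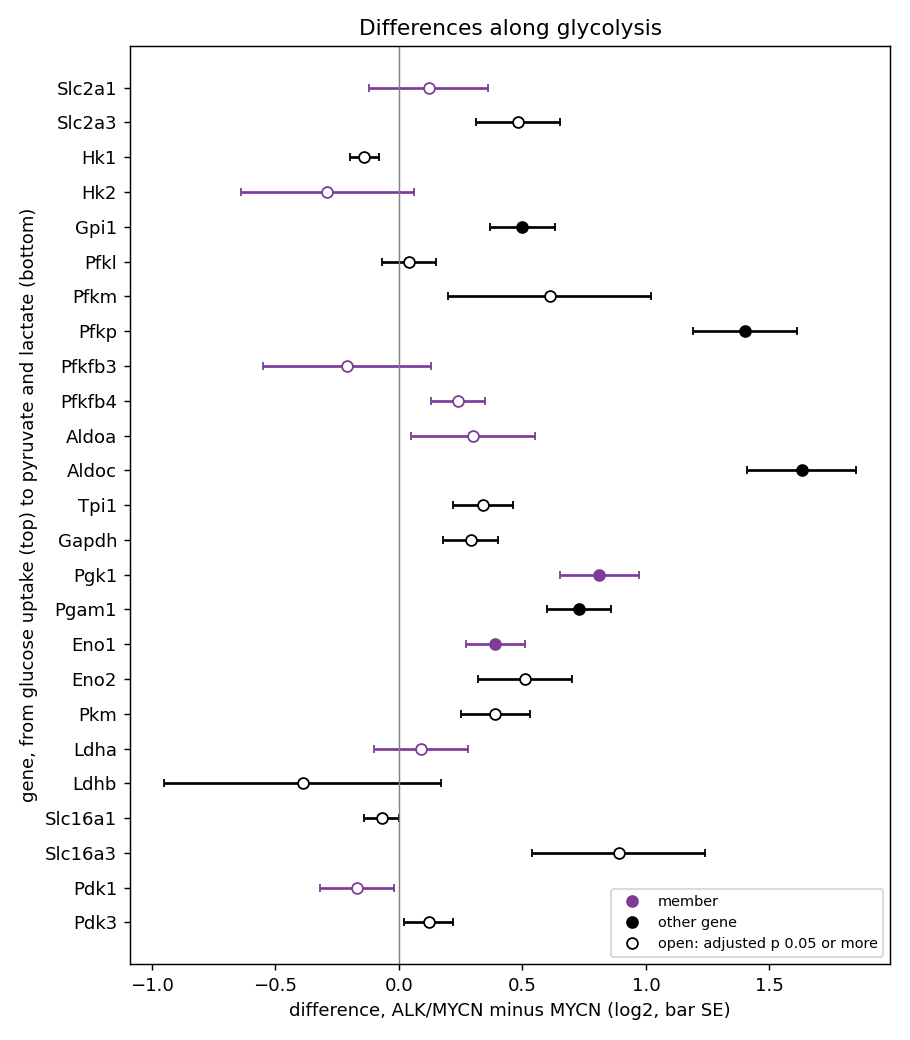
Difference, ALK/MYCN minus MYCN on the log2 scale with its SE (x axis), of genes ordered from glucose uptake (top) to lactate and pyruvate (bottom), with the 10 genes described here in purple and others in black; filled symbols had an adjusted p below 0.05. Pgk1, Eno1, Gpi1, Pfkp, Aldoc and Pgam1 are filled on the right, and Slc2a1, Hk2, Pfkfb3, Ldha and Pdk1 lie near 0 or left of it (Pfkfb3 and Pdk1 turn to 0.04 and 0.08 with spike-in centring).

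Several steps are served by more than 1 isozyme, and the within-tumour difference of 2 isozymes does not change when a whole array is shifted, though it does when arrays are rescaled. For 7 pairs, an exact two-sided permutation test over 252 assignments of the tumours was run, with p-values adjusted over the pairs. The smallest p this test allows is 0.00794, which adjusts to 0.0556 when 1 pair alone reaches it, so a single pair cannot pass 0.05. Aldoa minus Aldoc was 0.67, 1.64, 0.73, 0.35 and 1.04 in ALK/MYCN tumours, against 2.00, 2.87, 1.72, 2.41 and 2.07 in MYCN tumours. Every ALK/MYCN value was below every MYCN value, and the groups differed by -1.33 (exact permutation p = 0.00794, adjusted p = 0.0556). This was the 1 pair of 7 with an unadjusted p under 0.05, and 0 passed after adjustment. The other 6 pairs had adjusted p from 0.50 to 0.714. They were Hk2 minus Hk1 (-0.15), Eno1 minus Eno2 (-0.13), Ldha minus Ldhb (0.49), Pfkfb3 minus Pfkfb4 (-0.45), Pdk1 minus Pdk3 (-0.29) and Slc2a1 minus Slc2a3 (-0.36). The partner genes themselves differed by -0.14 (Hk1), 0.51 (Eno2), -0.39 (Ldhb), 0.12 (Pdk3) and 0.48 (Slc2a3), with none of the 5 called by limma. For Hk1 the probes disagreed: 2 less bright probes differed by 1.05 and 0.60, with adjusted p of 0.000596 and 0.00108 over the kept probes.

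Over all genes tested, 14.2% were higher and 12.2% lower, the shares to set beside each count in this paragraph. No list was tested as a set. Among 12 glucose and lactate transporters tested besides Slc2a1, 3 were higher and 0 lower. They were Slc2a6, a lysosomal member of the glucose transporter family (1.75 ± 0.24; limma adjusted p = 0.00114), Slc2a8 (0.63 ± 0.19; 0.0324) and Bsg, the chaperone of lactate transporters (0.43 ± 0.12; 0.027). A second, dimmer Slc2a6 probe differed by 0.51 ± 0.13 (limma adjusted p = 0.0184 over the kept probes). Of 14 genes of pyruvate entry and its regulators besides Pdk1, 1 was higher, the phosphatase Pdp1 that reverses the action of Pdk1 (0.76 ± 0.21; limma adjusted p = 0.0229), and 0 were lower. Of 9 other regulators of fructose bisphosphates and gluconeogenesis, Tigar, which breaks down fructose 2,6-bisphosphate (0.81 ± 0.18; limma adjusted p = 0.01), and G6pc3, a glucose 6-phosphatase (0.56 ± 0.08; 0.00146), were higher and 0 lower. Of 10 other carbonic anhydrases tested, 1 was higher, Car4 (0.32 ± 0.07; limma adjusted p = 0.0115), whose second probe differed by -0.31 ± 0.27, and 0 were lower.

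Of 34 known hypoxia targets outside glycolysis, 3 were higher, 3 lower and 28 not called, with a median difference of -0.08. Neither count is above the 14.2% higher and 12.2% lower among all genes. Egln3, a prolyl hydroxylase that marks HIF-alpha for degradation, read -0.95, -1.34, -0.50, 1.99 and 0.61 in ALK/MYCN tumours, against -5.28, -1.68, -2.98, -3.98 and -4.76 in MYCN tumours. Every ALK/MYCN tumour lay above every MYCN tumour, and the difference was 3.70 ± 0.79 (SE, n = 5 each; limma adjusted p = 0.0082). Narf (0.75 ± 0.13; limma adjusted p = 0.00358) and Ddit4, an inhibitor of mTORC1 (0.78 ± 0.25; 0.0458), were also higher. Lower were the haem oxygenase Hmox1 (-2.11 ± 0.49; limma adjusted p = 0.0119), Rcor2 (-0.61 ± 0.12; 0.00482) and the lysyl oxidase Lox (-1.10 ± 0.35; 0.0423), whose probe was well above background in 3 of 5 ALK/MYCN tumours. A second Lox probe differed by -0.58 ± 0.27 and was not called (limma adjusted p = 0.139 over the kept probes). Of 13 HIF and MYC regulators, Hif1a was higher (0.49 ± 0.11; limma adjusted p = 0.011), as was Mycn (2.85 ± 0.35; 0.000764). The HIF partners Arnt2 (-0.60 ± 0.09; limma adjusted p = 0.00132) and Arnt (-0.35 ± 0.11; 0.0472) were lower. Second probes differed by 0.23 ± 0.07 for Hif1a (limma adjusted p = 0.0389 over the kept probes) and by -0.28 ± 0.10 for Arnt, which was not called there (0.0604).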

How the data were processed

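Total RNA of 10 tumours (Cy3) was hybridised against a mouse reference RNA (Cy5) in one dye orientation on Agilent SurePrint arrays, per the labels' protocols, so dye bias was not balanced. The deposited spot intensities came from Agilent Feature Extraction 10.7.3.1, with positions on mm9, per the file headers. The deposited value table of log2 ratios, one of the alternatives, differed by at most 5.01e-04 from log2 of scanner-processed Cy3 over Cy5 for the 55249 probes printed once, and its array medians lay between -0.186 and -0.035. Any later step of the authors is not given in the labels or headers.

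Mean signals were corrected for local background (normexp, offset 50), loess-normalised within arrays with control spots at weight 0, and averaged over spots of a probe. Between 177 and 345 outlier spots per array were left out. Probes were kept where at least 5 of the 10 arrays had their Cy3 signal well above background, and each gene took its probe of highest mean intensity. Genes were named through accessions and symbols in a RefSeq table, and otherwise kept the array's name (7082 of 22234). limma 3.58.1 in R 4.3.3 was fitted to all 10 tumours, with Benjamini-Hochberg adjustment at 0.05, and was tested on simulated data. The arrays lie on 3 slides, each holding both groups, with the groups spread unevenly over them.

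The genes and lists were chosen with earlier results of these data known. Other genes were named as the 3 smallest p-values called in each direction of each pathway list, both genes of each isozyme pair and the 3 genes closest to each member. The alternatives were scanner-processed signals, the deposited table, median and spike-in centring, scaling between arrays, Cy3 alone and 2 filters on dim probes. Others were the mean over probes, slide or replicate number as a block, and leaving out each tumour. A further one left out 3 tumours together, ALK/MYCN 3, MYCN 2 and MYCN 5. MYCN 5 had the highest mean in no cell type marker list, and MYCN 4, with the highest adipocyte mean (3.96), was kept. Median normalisation in place of loess was added after seeing the data.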

Additional observations from a re-analysis of the deposited data

Results flagged for a closer look

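In 5 of 86 groups of 5 tumours examined, the gap between an extreme tumour and its nearest neighbour, divided by the range of the group, was above 0.71, the critical value for 5 samples. Chance marks about 1 in 20 groups, so a pattern in these tumours cannot be read from them. Among the 10 genes, only the Pfkfb3 minus Pfkfb4 difference was marked: MYCN 4 read 2.45, against 0.29 to 0.90 in the other MYCN tumours (gap ratio 0.717). In ALK/MYCN 4, the lactate dehydrogenase subunit gene Ldhb read -1.95, against -0.51 to -0.02 in the other ALK/MYCN tumours (0.746). In the same tumour, Car4 read -0.16, against -0.49 to -0.45 (0.876). Bsg read -1.66 in ALK/MYCN 2, against -1.24 to -1.11 in the other ALK/MYCN tumours (0.761). Arnt read -0.82 in ALK/MYCN 3, against -1.27 to -1.17 in the other ALK/MYCN tumours (0.769).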

How the results depend on the processing

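Of the 10 genes, Pgk1 was called under all 23 alternatives, Eno1 under 13, Car9 under 7, Pfkfb4 under 2, Aldoa under 1 and the other 5 under none (adjusted p from 0.178 to 0.987). The count of the 10 genes called was 1 with no filter on dim probes, with the replicate block and without ALK/MYCN 3, MYCN 2 and MYCN 5, and 1 to 3 when each tumour was left out. Dropping tumour 1, 4 or 5 of the ALK/MYCN group, or MYCN 5, gave 1. The count of their probes called was 1 under the same 3 settings and 1 to 3 without each tumour, with 1 on dropping tumour 1, 4 or 5 of the ALK/MYCN group. Over all genes, 9651 were called with spike-in centring (8816 higher and 835 lower, against 3166 and 2722), 3689 without the 3 tumours and 4127 to 5429 without each tumour. Median normalisation, chosen after seeing the data, gave 4451 higher and 1349 lower. The median difference of all genes was 0.25 with spike-in centring, where that of the 10 genes was 0.36. The median of the 10 genes was -0.07 to 0.20 without each tumour, with -0.07 on dropping ALK/MYCN 1. Over the 23 alternatives, the count of other glycolysis enzymes called higher was 3 to 8, of transporters 1 to 7, of pyruvate genes 0 to 4, of gluconeogenesis and fructose bisphosphate regulators 2 to 4, of hypoxia targets 2 to 7 (1 to 4 lower), of carbonic anhydrases 0 to 2 (0 to 2 lower) and of HIF and MYC regulators 1 to 6 (1 to 3 lower). Lox was called under 7, Ddit4 under 9, Arnt under 10, Bsg under 13, Slc2a8 under 16 and Car4 under 19.

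Differences changed sign for Slc2a1 without ALK/MYCN 1 (-0.09), Ldha with the mean over probes (-0.01) and without ALK/MYCN 1 (-0.04), Pfkfb3 with spike-in centring (0.04) and without MYCN 4 (0.14), and Pdk1 with spike-in centring (0.08). They also did for Hk1 with spike-in centring (0.11) and the mean over probes (0.50, where its probes disagree), Ldhb with the slide block (0.02) and without the 3 tumours (0.31), Hk2 minus Hk1 without MYCN 2 (0.09) and Ldha minus Ldhb without the 3 tumours (-0.12). Without each tumour, the range was -0.09 to 0.22 for Slc2a1, -0.04 to 0.23 for Ldha, -0.38 to 0.14 for Pfkfb3 and -0.32 to 0.09 for Hk2 minus Hk1. Spike-in centring shifts all values of an array by the same amount, and the median difference of all genes was 0.25 under it. The cause of the sign changes was not tested for any of these genes.

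Deviations of same-numbered tumours of the groups correlated over genes at 0.34 for number 1. For numbers 2 to 5 the correlations were -0.021, -0.081, -0.091 and -0.061. Only 1 of 5 numbers matched best to itself, so the numbers were not taken to pair the tumours in the main fit. With the replicate block 4618 genes were called, and the adjusted p was 0.0371 for Pgk1, 0.11 for Eno1 and 0.0911 for Car9.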
